A study of Danio rerio with 6 samples.

Results

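The genes described here are 3 that serve the breakdown of glucose: *pfkfb3*, which encodes a regulator of glycolysis, and *ldha* and *aldoaa*, which encode glycolytic enzymes. They were picked by the GenBank or RefSeq accession of their probe, and each was read by 1 probe of the 41031 on the array. In the gene names used, 0 further probes carried the symbol of a member. Only 3159 of the probes could be named, so further probes of these genes may be on the array without a name.

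RNA came from *vhl* mutant and wild-type zebrafish embryos at 4 days post fertilisation (4dpf), both groups from a TL/LWT mix of strains, and was hybridised to one-colour Agilent arrays. Each sample was a pool of 30 whole embryos, with 3 arrays for *vhl* mutants (replicates 1, 3 and 4) and 3 for wild-type (replicates 2, 3 and 4). According to the methods of the study, the mutants are homozygous for a *vhl* allele in a line that also carries a phd3::EGFP reporter of the hypoxic response. The labels do not mention the reporter, and whether the wild-type embryos carried it is not given in the sources used here.

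The product of *vhl* marks the α subunit of Hypoxia Inducible Factor (HIF) for destruction, so that HIF target genes are switched on in the mutants without a shortage of oxygen. Glycolysis turns glucose into pyruvate and yields ATP without oxygen. Phosphofructokinase is its main point of control, and the bifunctional enzymes of the PFKFB family make and break the sugar bisphosphate that activates it. Further down, aldolase splits the sugar into triose phosphates, and lactate dehydrogenase turns pyruvate into lactate and thereby restores the NAD+ that glycolysis consumes. In mammalian cells, genes of all these steps are known HIF targets.

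All the *vhl* mutant arrays lay on 1 slide and all the wild-type arrays on the other, so 0 of the 2 slides held both groups and slide or scan cannot be told apart from genotype. The share of zebrafish spots that the scanner software marked as well above background was 67.2% to 72.4% in mutants and 67.2% to 69.5% in wild-type, and 0 spots were saturated. Across the array, 1322 of 41031 probes (3.22%) were called, 687 higher (1.67%) and 635 lower (1.55%). A probe was called when limma's moderated test gave a Benjamini-Hochberg adjusted p of 0.01 or less over all probes together with a fold change of 2 or more. The median log2 fold change of all probes was near 0 (-0.000174). In whole embryos, a larger share of cells of some type and more RNA per cell cannot be told apart.

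The 3 genes were all brighter in *vhl* mutants, but by very different amounts: 14.9-fold for *pfkfb3*, 3.34-fold for *ldha* and 1.54-fold for *aldoaa*. Of these, 2 of 3 were called higher, *pfkfb3* and *ldha*, against 1.67% of all probes. The third, *aldoaa*, had an adjusted p under the limit but a fold change under 2. In each gene the lowest *vhl* mutant array lay above the highest wild-type array. This was also true of 21.4% of all probes, and groups that did not overlap in either direction were found in 43.8%. The names of *pfkfb3* and *ldha* come from the study's own table of changed genes. Their passing the test is therefore not independent evidence of a change. The name of *aldoaa* came through its RefSeq accession, but all 3 genes were chosen with earlier results of these data known.

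**Figure D1:**
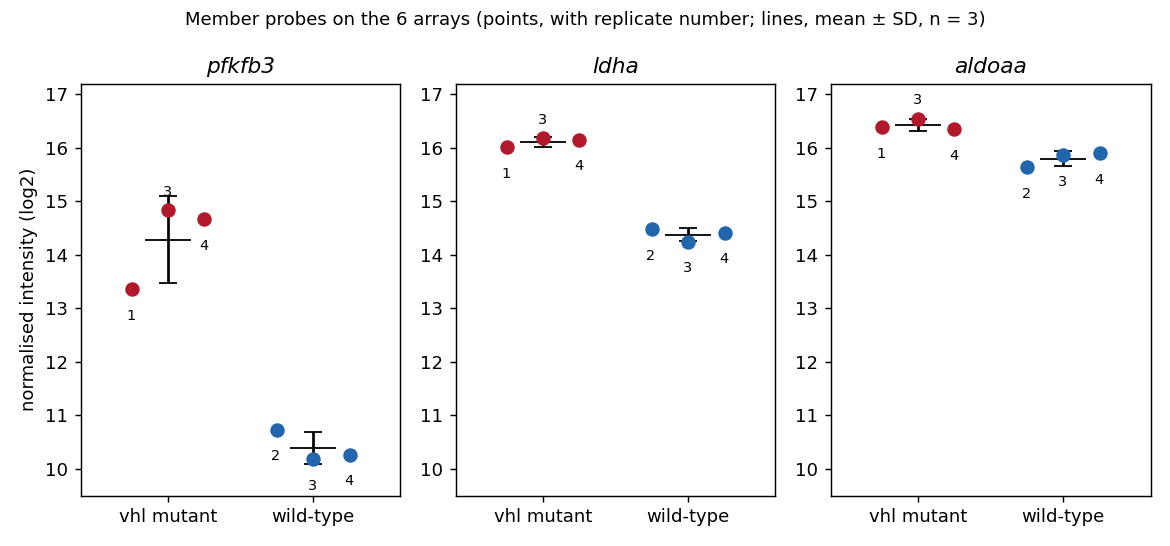
Normalised log2 intensity (y axis, the same scale in each panel) of the *pfkfb3*, *ldha* and *aldoaa* probes on the *vhl* mutant (left, red) and wild-type (right, blue) arrays, with the replicate number beside each point and lines at the mean ± SD (n = 3). The groups are separate in all panels, by 2.63 on the log2 scale for *pfkfb3*, 1.53 for *ldha* and 0.45 for *aldoaa*, and the mutant points are spread widest for *pfkfb3*.

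The regulator *pfkfb3* encodes a 6-phosphofructo-2-kinase/fructose-2,6-bisphosphatase whose kinase activity, in mammals, far exceeds its phosphatase activity, so that it drives glycolysis forward. As scanned, before any correction, its spot read 9364, 25487.5 and 24996 intensity units in *vhl* mutants (replicates 1, 3 and 4), against 1906, 1189 and 1317 in wild-type (replicates 2, 3 and 4). The local background of the spot averaged 22.7 in mutants and 27.2 in wild-type, so the background was a small part of the signal even at the wild-type level. Normalised log2 intensities were 13.36, 14.83 and 14.67 in mutants and 10.73, 10.18 and 10.26 in wild-type. The mutant arrays were all far above the wild-type arrays, but replicate 1 lay well below the other mutants, and the mutant values spanned 1.48 against 0.56 in wild-type.

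The means of *pfkfb3* were 14.29 ± 0.81 in *vhl* mutants and 10.39 ± 0.30 in wild-type (SD, n = 3 each). The difference on the log2 scale was 3.89 ± 0.40 (SE; limma adjusted p = 0.00217), and its 95% confidence interval ran from 2.92 to 4.87, or 7.58-fold to 29.2-fold. Counted from the largest rise, with falls last, this was number 11 of all 41031 probes. Without mutant replicate 1 the log2 fold change was 4.34. The call held with any mutant array left out but not with a wild-type array left out. Without wild-type replicate 2, 3 or 4 the limma adjusted p was 0.0110, 0.0157 and 0.0151, with log2 fold changes of 4.06, 3.79 and 3.83.

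The *ldha* probe was bright in both groups. As scanned it read 62789, 64665 and 76151 intensity units in *vhl* mutants, against 25896, 21404 and 24556 in wild-type. Normalised log2 intensities were 16.01, 16.18 and 16.15 in mutants and 14.48, 14.25 and 14.41 in wild-type. The arrays of each group lay close together, and the distance between the groups was several times the spread within either.

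The means of *ldha* were 16.12 ± 0.09 in *vhl* mutants and 14.38 ± 0.12 in wild-type (SD, n = 3 each), which differ by 1.74 ± 0.09 (SE; limma adjusted p = 0.000623). The 95% confidence interval was 1.52 to 1.95, or 2.87-fold to 3.87-fold. Its change was smaller than that of *pfkfb3*, number 288 over the array counted from the largest rise, but its standard error and adjusted p were smaller. The call held with each array left out in turn (log2 fold change 1.67 to 1.80).

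The *aldoaa* probe, for aldolase A, the muscle form of the enzyme in mammals, was also bright in both groups. As scanned it read 84626, 87437 and 88691 intensity units in *vhl* mutants, against 57193, 62681 and 63691 in wild-type. Normalised log2 intensities were 16.39, 16.55 and 16.35 in mutants and 15.64, 15.86 and 15.90 in wild-type. The groups were again separate, but here the gap between them (0.45) was less than 2 times the wild-type range (0.26).

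The means of *aldoaa* were 16.43 ± 0.11 in *vhl* mutants and 15.80 ± 0.14 in wild-type (SD, n = 3 each), which differ by 0.63 ± 0.10 (SE; limma adjusted p = 0.00698). The 95% confidence interval, 0.39 to 0.86 or 1.31-fold to 1.82-fold, lay wholly under the 2-fold limit. Counted from the largest rise, this was number 2903 over the array. Of all probes, 11.7% were higher at an adjusted p under 0.05 with no fold limit.

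Features that read no zebrafish RNA differed between the groups by a similar amount. After quantile normalisation with control spots kept, the mean log2 intensity of 10 probes for E1A, a spike-in RNA of the Agilent kit, was 11.38, 11.78 and 11.46 on the *vhl* mutant arrays and 11.31, 10.96 and 10.92 on the wild-type arrays. This is a difference of 0.48 (exact two-sided permutation p = 0.1, the smallest that 3 arrays against 3 allow). The bright corner features, used to place the grid, averaged 14.23 in mutants and 13.62 in wild-type, a difference of 0.61 (exact permutation p = 0.1). In that same normalisation the log2 fold change of *aldoaa* was 0.45. When each array was scaled to its E1A probes instead, after leaving out 2 spots of extreme local background on mutant replicate 3, *pfkfb3* had a log2 fold change of 3.16, *ldha* of 1.02 and *aldoaa* of 0.03 (limma adjusted p = 0.940 for *aldoaa*, from a fit in which limma gave all probes a single variance). That scaling moved the median of all probes to -0.50, and relative to it the changes were 3.66, 1.52 and 0.53. With those 2 spots left out, no normalisation and 75th-percentile scaling gave the same 0.53 for *aldoaa* relative to the median of all probes. These scalings shift all probes of an array alike, so this is the same result and not a further one. With the spots kept, the median of all probes was 0.56 with no normalisation and 0.71 with 75th-percentile scaling. The values relative to it, alike under both for the same reason, were 3.09 for *pfkfb3*, 0.94 for *ldha* and -0.05 for *aldoaa*. The direction of *aldoaa* relative to the median probe thus turned only with the 2 spots kept after normexp without quantile normalisation. With the processed signal at 75th-percentile scaling, which kept them, *aldoaa* was 0.57 above the median of all probes. Both *pfkfb3* and *ldha* were above that median under all 24 alternatives.

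**Figure D2:**
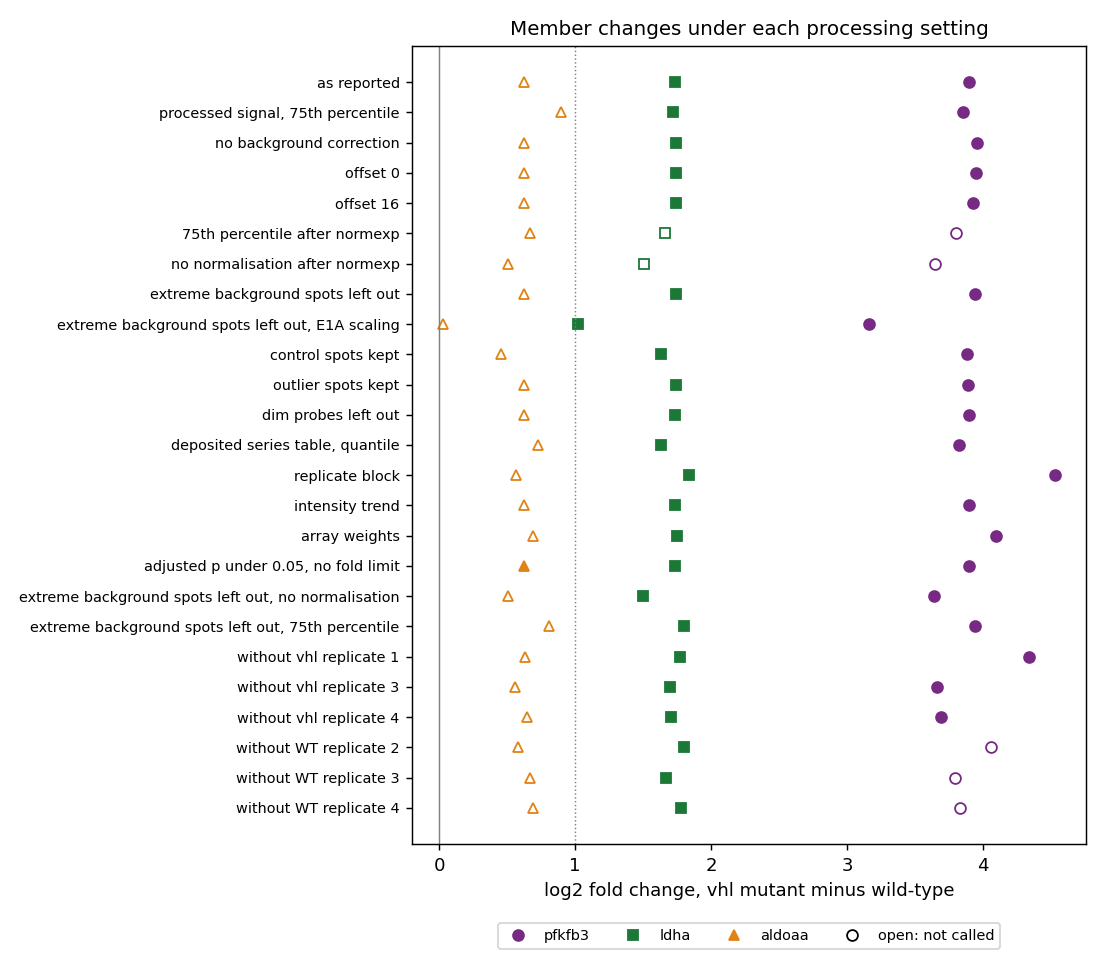
Log2 fold change, *vhl* mutant minus wild-type (x axis), of *pfkfb3* (circles), *ldha* (squares) and *aldoaa* (triangles) as reported (top row) and under each of the 24 alternatives. Filled symbols passed the limits of that setting and the dotted line marks 2-fold. The order of the 3 genes is the same in each row, with *pfkfb3* between 3.16 and 4.53, *ldha* between 1.02 and 1.84, and *aldoaa* between 0.03 and 0.90.

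The changes of the 3 genes were then compared within each array, which removes any factor that scales all probes of an array alike. The log2 value of *pfkfb3* minus that of *ldha* was -2.65, -1.35 and -1.49 in *vhl* mutants and -3.75, -4.07 and -4.15 in wild-type, so that *pfkfb3* gained 2.16 on *ldha* (4.46-fold). The value of *ldha* minus that of *aldoaa* was -0.38, -0.36 and -0.19 in mutants and -1.17, -1.61 and -1.49 in wild-type, a gain of 1.11 (2.16-fold). For *pfkfb3* against *aldoaa* the gain was 3.27 (9.63-fold). In all 3 pairs the lowest value of a mutant array was above the highest of a wild-type array. Each pair had an exact two-sided permutation p of 0.1, the smallest the design allows, and 0.1 after Benjamini-Hochberg adjustment over the 3 pairs, so none could pass 0.05. Over the 24 alternatives the gain stayed between 1.97 and 2.69, 0.82 and 1.27, and 2.96 and 3.96 for these pairs in the order given.

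No array of either group read any of the 3 genes near background, so each has a measured baseline in wild-type. The mean scanned signal in intensity units was 19949 in mutants and 1471 in wild-type for *pfkfb3*, 67868 in mutants and 23952 in wild-type for *ldha*, and 86918 in mutants and 61188 in wild-type for *aldoaa*. The signal of a probe depends on how well it binds its target as well as on the amount of transcript, so no order of transcript abundance between the 3 genes is read from these values. The brighter the probe was in wild-type, the smaller was its rise. Whether the brightness of a probe limits its rise was not tested.

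In normalised log2 intensity, replicates did not deviate from their group mean in the same way in each gene. Mutant replicate 3 was the highest mutant array for all 3 genes, by 0.55 over the mutant mean for *pfkfb3*, 0.07 for *ldha* and 0.12 for *aldoaa*. Mutant replicate 1 was the lowest for *pfkfb3* (-0.93) and *ldha* (-0.10), while for *aldoaa* it was replicate 4 (-0.08). In wild-type, replicate 2 was the highest array for *pfkfb3* and *ldha* and the lowest for *aldoaa*. The order of the mutant arrays depended on the normalisation. As scanned, replicate 4 was the highest mutant array for *ldha* (76151) and *aldoaa* (88691).

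The other genes of the pathway were taken from a list of 35 glycolytic enzymes, *ldha* and *aldoaa* among them. Here and below, a gene is said to have a probe only where a probe could be named. Of 41031 probes 3159 had a name, so other listed genes may be on the array without a name. Through RefSeq accessions, a match that takes no account of values, 4 had a probe. Of these, 1 was called higher and 1 lower (against 3.22% of all probes in either direction), the remaining pair, *aldoaa* and *tpi1b*, were brighter in mutants without passing the fold limit, and the median log2 fold change was 0.65, against -0.000174 over all probes. When symbols from the study's own probe lists were added, 12 genes had a probe, of which 7 were called higher, 3 were called lower and 2 were not called, with a median of 1.26. The 7 genes that were added only through the study's table of changed genes were all picked on these arrays, so the larger count is a description and not evidence of a direction.

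Among genes of the preparatory steps, which use up ATP, *pfkmb*, for phosphofructokinase itself, the enzyme that the product of *pfkfb3* activates, rose. Its mean log2 intensity was 11.77 ± 0.15 in *vhl* mutants and 9.11 ± 0.09 in wild-type (SD, n = 3 each), a log2 fold change of 2.66 (limma adjusted p = 0.000349). The hexokinase gene *hk1* (1.64) and the glucose phosphate isomerase gene *gpia* (1.41) were called higher. The gene *hkdc1*, which encodes a further hexokinase, was called lower at -1.46. The call of *hk1* was lost without mutant replicate 3 or 4 and without wild-type replicate 2, 3 or 4 (log2 fold change 1.49 to 1.68, limma adjusted p 0.0159 to 0.0274), and both *hk1* (0.86) and *gpia* (0.89) were under the fold limit with E1A scaling.

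At the step next to that of *aldoaa*, the triosephosphate isomerase gene *tpi1b* was brighter in *vhl* mutants by a close amount. Its log2 intensities were 16.47, 16.56 and 16.42 in mutants and 15.77, 15.87 and 15.79 in wild-type, with no overlap and a log2 fold change of 0.68 (limma adjusted p = 0.00207). It was not called, as it stayed under 2-fold, and under E1A scaling its log2 fold change was 0.09. A second *tpi1b* probe, with 15 spots, gave 1.06 (limma adjusted p = 0.00742) and was called, so the probes of this gene disagree on the call. That second call was lost with any 1 array left out except mutant replicate 4 (log2 fold change 0.92 to 1.15 without mutant replicates 1 and 3 and wild-type replicates 2, 3 and 4, limma adjusted p 0.0118 to 0.0289).

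Of the later, ATP-yielding steps, *gapdhs* (glyceraldehyde-3-phosphate dehydrogenase) was called at 1.11 (limma adjusted p = 0.00894), a call that was lost in 14 of 24 alternatives, among them those without mutant replicate 1 or 4 or wild-type replicate 2, 3 or 4 (log2 fold change 0.92 to 1.15, limma adjusted p 0.0128 to 0.0419). The phosphoglycerate mutase gene *pgam1a* (1.56, but 0.84 and not called with E1A scaling) and the pyruvate kinase gene *pkma* (1.98) were called higher. The enolase gene *eno1b* (-1.81) and the pyruvate kinase gene *pklr* (-2.30) were called lower. The call of *eno1b* was lost without mutant replicate 4 or wild-type replicates 3 or 4 (log2 fold change -1.75, -1.70 and -1.71, limma adjusted p = 0.0156, 0.0220 and 0.0221). The probe of *pklr* read 12.50, 12.59 and 12.97 in mutants against 14.90, 15.29 and 14.78 in wild-type, with no overlap.

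**Figure D3:**
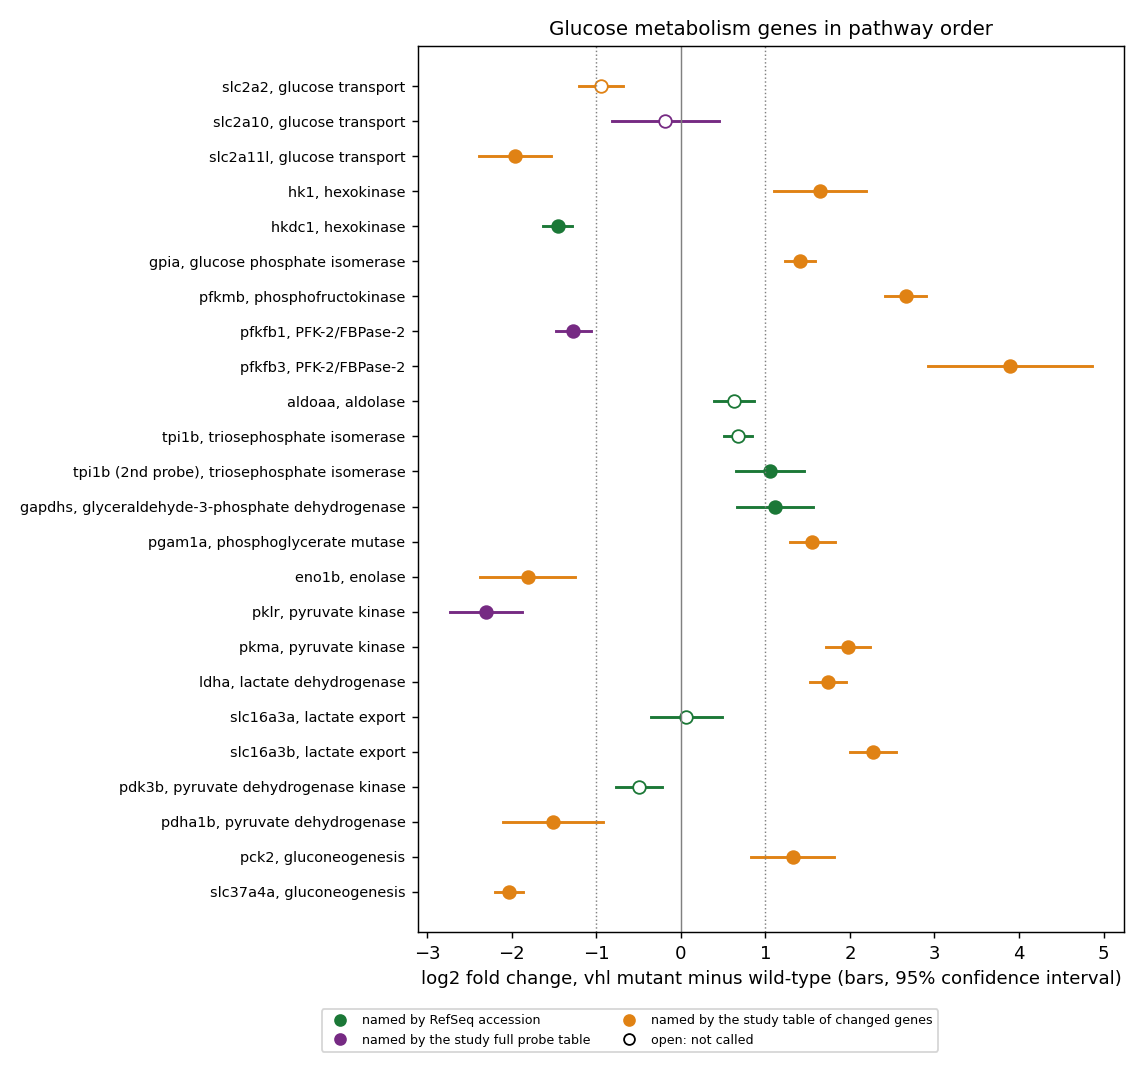
Log2 fold change, *vhl* mutant minus wild-type, with its 95% confidence interval (x axis) for measured genes of glucose metabolism, ordered down the page from glucose uptake to lactate export, then pyruvate use and gluconeogenesis. Filled points were called, colours give the source of the gene name, and dotted lines mark 2-fold; *pfkfb3* (3.89) lies farthest to the right and *pklr* (-2.30) farthest to the left.

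Named probes of more than 1 isozyme were found for 3 of the listed enzymes, and each of these 3 pairs went opposite ways. The 3 pairs were compared only after their values were seen, so no test of the pair is given. In the PFKFB family, *pfkfb1*, whose product is the liver and muscle form in mammals, was called lower: 8.17, 7.96 and 7.94 in *vhl* mutants against 9.24, 9.32 and 9.32 in wild-type, a log2 fold change of -1.27 (limma adjusted p = 0.000852). Of the 8 listed genes that set the level of that sugar bisphosphate, 2 had a probe, *pfkfb3* and *pfkfb1*, 1 called in each direction (against 3.22% of all probes in either). The hexokinase pair *hk1* and *hkdc1* and the pyruvate kinase pair *pkma* and *pklr* were likewise called in opposite directions. In mammals, *pklr* encodes the liver and red cell pyruvate kinase, and the gene related to *pkma* the form of muscle and most other tissues. The higher member of each opposed pair was named through the table of changed genes only, and the lower member without regard to change.

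**Figure D4:**
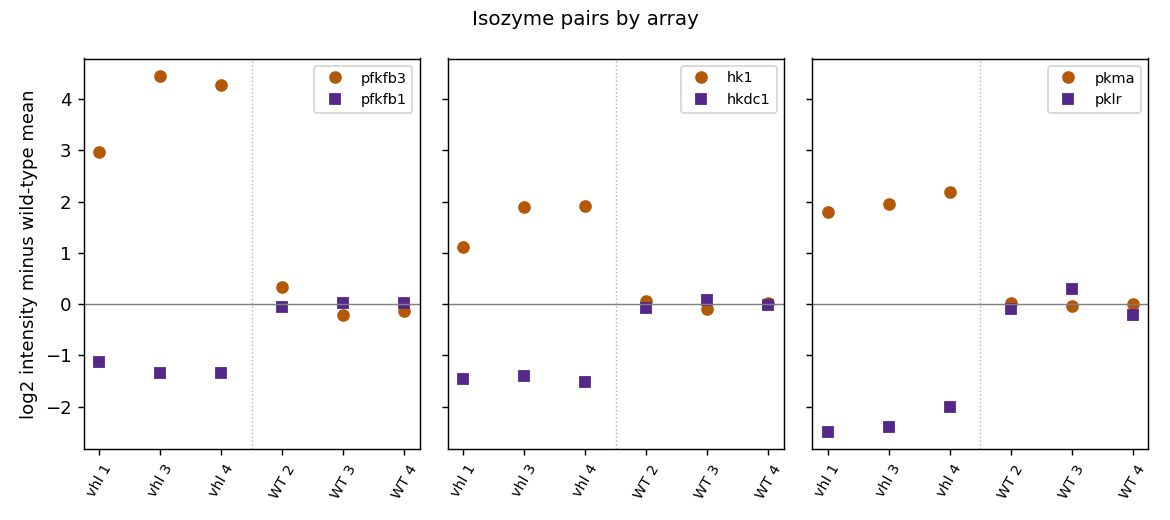
Log2 intensity minus the wild-type mean of the same probe (y axis) on each *vhl* mutant array (left of the dotted line) and wild-type array (right) for 3 isozyme pairs. The mutant points of *pfkfb3*, *hk1* and *pkma* lie above 0 and those of *pfkfb1*, *hkdc1* and *pklr* below 0 on every array.

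Downstream of *ldha*, the lactate transporter gene *slc16a3b* was called at 2.28: its probe read 12.88, 13.20 and 13.16 in *vhl* mutants and 10.69, 10.79 and 10.92 in wild-type. Its paralogue *slc16a3a* was dim, with overlapping groups and a log2 fold change of 0.06 (limma adjusted p = 0.825). Of 15 genes for glucose and lactate transport, 5 had a probe, 1 called higher and 1 lower; over all probes, 1.67% were called higher and 1.55% lower, also for the lists that follow. The lower was *slc2a11l*, of the glucose transporter family (-1.96). Of 17 genes for the entry of pyruvate into mitochondria, the step that competes with *ldha* for pyruvate, 2 had a probe. Of these the pyruvate dehydrogenase subunit gene *pdha1b* was called lower (-1.51), and *pdk3b*, whose product inhibits that enzyme, was not called (-0.49). Of 13 genes for gluconeogenesis, which runs the path in reverse, 2 had a probe. Of these *pck2*, for mitochondrial phosphoenolpyruvate carboxykinase, was called higher (1.32) and the glucose-6-phosphate transporter gene *slc37a4a* lower (-2.03). Every called gene of these lists got its name only from the authors' list of genes that changed. These counts are therefore a description and not independent evidence. Without that source of names, 2 transport genes and 1 gene of pyruvate entry had a named probe, with 0 called. For gluconeogenesis 0 genes then had a named probe. The calls of *slc2a11l*, *pdha1b* and *pck2* were lost without any 1 of the 3 wild-type arrays (limma adjusted p 0.0101 to 0.0392), and also without mutant replicate 4 for *pdha1b* (0.0291) and without mutant replicates 3 and 4 for *pck2* (0.0182 and 0.0130).

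Genes with a profile most like that of each member were sought among 2690 named probes, by the root mean square distance of log2 values over the 6 arrays after taking off each probe's wild-type mean. For *pfkfb3* the nearest were *ero1a* (0.26), which encodes an oxidase of the endoplasmic reticulum, *plod1a* (0.39), for a collagen lysyl hydroxylase, and the lens crystallin gene *crygn2* (0.40). As with *pfkfb3*, mutant replicate 1 was the lowest mutant array for *ero1a*, with 11.29 against 12.31 and 12.13 on the other mutant arrays, and 8.21, 8.03 and 8.34 in wild-type. For *ldha* the nearest were *sumf1* (0.09), *cry4* (0.12) and *fbxl5* (0.12). For *aldoaa* they were *cyt1l* (0.07), *tmem51b* (0.08) and *tpi1b* (0.08), of which *tpi1b* acts at the adjoining step of glycolysis. The 6 genes nearest to *pfkfb3* and *ldha* were called higher (against 1.67% of all probes), and the 3 nearest to *aldoaa* were not called. Of those 6, all but *crygn2* were named only through the study's table of changed genes. The call of *plod1a* was lost without wild-type replicate 3 or 4 (limma adjusted p = 0.0127 and 0.0120). A small distance was sought by the search itself and is a description. The calls largely follow from the search too, since a near profile has nearly the same change.

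Markers of tissues that use these enzymes were read on the same arrays. Of 31 skeletal muscle markers 6 had a probe and 0 were called (against 3.22% of all probes), with log2 fold changes over the list from -0.25 to 0.49. Their summed normalised intensity overlapped, at 531420 to 577368 in *vhl* mutants and 550069 to 563642 in wild-type. Singly, *myhz1.1* (lower) and *tnnc2.2* (higher) had groups that did not overlap, as did 43.8% of all probes in either direction. Of 17 erythrocyte markers 4 had a probe, and 4 of 4 were called higher (*hbae1.1*, *hbba2*, *hbbe2* and *alas2*, against 1.67% of all probes). Their sums were 144913 to 217996 in mutants and 33342 to 34753 in wild-type. These sums lean on the brightest probe, that of *hbbe2* (mean log2 intensity 17.03 in mutants and 14.88 in wild-type). The calls of *alas2* and *hbba2* were lost without any 1 of the 3 wild-type arrays, that of *hbae1.1* without wild-type replicate 2 or 3, and that of *hbba2* also without mutant replicate 3 or 4 (limma adjusted p 0.0101 to 0.0436 over these), while all 4 stayed higher. Of these 4 genes, *alas2* was named through RefSeq and the 3 globin genes through the list of genes that changed in the study, so their count is not independent evidence of a direction. Of 16 liver markers 7 had a probe, and their sums overlapped, at 301294 to 340605 in mutants and 311199 to 335932 in wild-type. Of these, 3 of 7 were called higher and 0 lower (against 1.67% and 1.55% of all probes), with log2 fold changes over the list from -0.87 to 4.95. The sum leans on the brightest liver probe, that of *apobb.1* (log2 fold change 0.11). Singly, *hpxa*, *cp* and *fga* (higher) and *serpina1* and *serpina1l* (lower) had groups that did not overlap, while those of *apobb.1* and *fgg* overlapped. Of 16 exocrine pancreas markers 2 had a probe, both called lower (against 1.55% of all probes). Their sums were 6131 to 13162 in mutants and 29345 to 51477 in wild-type, and lean on the brighter probe, that of *amy2a*. Of 16 photoreceptor and lens markers 9 had a probe, of which 4 were called lower, 1 was called higher (*crygn2*) and 4 were not called. Over all probes, 1.55% were called lower and 1.67% higher. The sums of these markers were 239217 to 265758 in mutants and 513400 to 545874 in wild-type. Of the liver, pancreas and photoreceptor markers, 4, 2 and 2 were named only through the study's list of genes that changed. All called liver and pancreas markers were among these, so their counts are not independent evidence of a direction. Without that source of names, 0 of 3 liver markers were called, and 0 pancreas markers had a named probe. Of the 7 photoreceptor and lens markers then left, 2 were called lower and 1 higher. Each measured marker was above background on at least 1 array. The part of these tissues in the changes of *pfkfb3*, *ldha* and *aldoaa* was not tested.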

How the data were processed

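The 3 genes and all gene lists were chosen with earlier results of these data known. The authors labelled 400 ng of RNA per sample with Cy3. Images were quantified in Agilent Feature Extraction 10.7.3.1. Per the file headers, the deposited values taken here are intensities (median pixel brightness of spot and surrounding background, uncorrected). The submitters' processing notes name limma 3.24.10. The methods give normexp, quantile normalisation, averaging of replicate spots and limits of 0.01 on p and 2-fold, but not whether p was adjusted. Here the adjusted p was used. The deposited flags of each spot are codes without a unit. The authors' series table, also intensities, matched the processed signal within 1% on all 6 arrays and was an alternative only. Of its columns, 0 belonged to no sample.

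normexp (offset 50, so changes of dim probes come out too small) was fitted on all spots in limma 3.58.1 under R 4.3.3. Spots marked as outliers were set missing, control spots (1264 positive, 153 negative) removed, and the rest quantile-normalised and averaged to 41031 probes. Groups came from sample titles. lmFit and eBayes were run on log2 intensities of all 6 arrays with no covariate, with Benjamini-Hochberg adjustment over all probes. The fit and its calls were tested on simulated log2 intensities, but background correction and normalisation were not. The number of arrays limits precision. Each pool had its own array, so p-values rest on the spread between arrays of a group, which joins pools of embryos with the handling of each array. They do not separate genotype from slide.

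Probes were named through RefSeq accessions (1752 probes, table of assembly GRCz12tu, used for names only) or, for 3159 in all, the study's probe tables too, from which only symbols were taken. The study's full probe table was held in part (1999 lines, in order of probe name). Its columns of fold changes and p-values were not used. The genes named are the members, genes of the pathway lists that were called, the measured glycolytic and PFKFB genes on the lists, and the 3 nearest profiles of each member. Genes with several probes were represented by the brightest. Some results are not reported here.

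Replicate numbers 3 and 4 occur in both groups but were not used to pair samples. Same-numbered arrays deviated from their group means with correlations of 0.0056 and 0.013, against -0.033 and 0.017 for arrays of unlike number. So few arrays cannot decide whether samples were paired. The replicate number equalled the position on the slide on all 6 arrays. Alternatives covered signal, background, offset, normalisation, control, outlier and dim spots, a replicate block, left-out replicates, variance model, array weights and thresholds.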

Additional observations from a re-analysis of the deposited data

Results flagged for a closer look

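Control features outside the zebrafish probes were brighter on the *vhl* mutant arrays. The mean log2 intensity of the 10 E1A spike-in probes was 11.54 ± 0.21 in mutants and 11.06 ± 0.22 in wild-type (SD, n = 3 each), a difference of 0.48 (exact permutation p = 0.1, the smallest possible). The bright corner features gave 14.23 ± 0.08 in mutants and 13.62 ± 0.13 in wild-type (SD, n = 3 each), a difference of 0.61 (exact permutation p = 0.1). These values come from quantile normalisation with control spots kept, under which *pfkfb3* was brighter in mutants by 3.88, *ldha* by 1.64 and *aldoaa* by 0.45 on the log2 scale. The part of the scaling between slides in the change of *aldoaa* was not tested.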

How the results depend on the processing

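Directions of *pfkfb3*, *ldha* and *aldoaa* and of the 3 differences between them were kept in all 24 alternatives. Some of these could not change the values. The variance model with an intensity trend, leaving out dim probes and the limit of 0.05 on adjusted p left the log2 fold changes as reported. Scaling a whole array cannot change a difference between probes within it. The calls of both *pfkfb3* and *ldha* were lost where quantile normalisation was left out after normexp with 2 spots of extreme background kept. With the processed signal at 75th-percentile scaling, which also kept these spots, both genes were called. The call of *pfkfb3*, but not that of *ldha*, was also lost with any wild-type array left out. With 75th-percentile scaling after normexp the log2 fold changes were 3.80 for *pfkfb3* (limma adjusted p = 0.0325) and 1.66 for *ldha* (0.0451), and with no normalisation 3.65 (0.0777) and 1.503 (0.0808). Then 0 of the 3 members and 0 of the 4 RefSeq-named glycolytic enzymes were called, and 9 and 3 probes over the array. Alternatives chosen after seeing the data left out these 2 spots at the same scaling. Both *pfkfb3* and *ldha* were then called, with 2073 probes called without normalisation (24.7% of them higher, against 52.0% as reported) and 1937 with 75th-percentile scaling (62.7% higher). The processed signal with 75th-percentile scaling gave 2622 probes (73.8% higher), against 1807 (51.8% higher) for the same signal from the series table with quantile normalisation, and E1A scaling 7287 (4.89% higher), from a fit with a single variance for all probes. The median change of all probes moved to 0.33 with the processed signal at 75th-percentile scaling (-0.0068 for the series table with quantile normalisation), 0.71 and 0.28 with 75th-percentile scaling with and without those spots, 0.56 with no normalisation and -0.50 with E1A scaling.

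The count of glycolytic enzymes (2 as reported) was 1 with the processed signal at 75th-percentile scaling, offset 0, E1A scaling, control spots kept, the series table, or no normalisation without the extreme spots, and 10 with the symbols of the study's tables. At an adjusted p under 0.05 with no fold limit it was 4, with 10029 probes called, and *aldoaa* (0.63) passed. With the replicate number as a block, *pfkfb3* was 4.53 (limma adjusted p = 0.00899), *ldha* 1.84 (0.00989) and *aldoaa* 0.57 (0.0373). Then 311 probes and 0 glycolytic enzymes were called. The replicate number is not known to pair the samples.

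Leaving out 1 replicate gave 3.66 to 4.34 for *pfkfb3*, 1 to 2 members, 379 (without wild-type replicate 3) to 2136 probes (without mutant replicate 1) and 1 to 2 glycolytic enzymes. Over the other 31 genes and probes followed, 598 of 744 values kept direction and call, 135 lost a call, 7 gained one, and 4 turned in sign, all of them uncalled. These were *slc16a3a* at -0.38 with E1A scaling and -0.12 without mutant replicate 4 (-0.12 to 0.17 with any 1 replicate left out), and *pdk3b* at 0.39 with 75th-percentile scaling and 0.23 with no normalisation. The causes were not tested. The mean pixel brightness was not run, since that column was not in the files used. The probes of *slc16a3a* and *pdk3b* were dim, and fold changes of dim probes are bounded by the offset. The *slc16a3a* probe was still marked well above background on 3 mutant and 3 wild-type arrays, and the *pdk3b* probe on 1 mutant and 3 wild-type arrays.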
